A study of Mus musculus with 12 samples.

Results

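The hypothalamus commands the anterior pituitary through a handful of neuropeptides, and 5 of their genes are described here: Crh, Trh, Sst, Ghrh and Gnrh1. They were chosen by name, with earlier results of these data known, as the genes of the releasing hormones and of the release-inhibiting hormone somatostatin. All 5 were found by Ensembl ID among the 78334 gene IDs of the count table, and all 5 passed the filter of at least 10 reads in total.

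Hypothalami of C57BL/6 males, which entered the study at an age of 8 weeks, were sequenced as 12 RNA-seq libraries in 5 groups. The Ob + CUR group (1 library) received curcumin at 50 mg/kg, the Ob + EAE group (2 libraries) an aged garlic extract at 200 mg/kg, and the Ob + RSV group (3 libraries) resveratrol at 2.25 mg/kg, each by daily oral gavage for 28 days on top of a high-fat diet (HFD) with 60% of its calories from fat. The Ob group (3 libraries) ate the same HFD and got the vehicle by gavage, and the C group (3 libraries) got the vehicle on standard chow. The labels give a total of 8 weeks of HFD but start the gavage only after 8 weeks of it, so the diet eaten during treatment is not certain. The methods give 3 biological replicates for C, Ob and Ob + RSV. For Ob + EAE the labels do not say whether the libraries are separate mice. That pair differed less than any other pair of one group (chi-square per degree of freedom of 5.78, against 20.1 to 64.6), and p-values measure the spread between these libraries, which may be technical.

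The neurons behind these genes sit in different places and release their peptides into the portal vessels of the median eminence, from where the peptides reach the pituitary. Corticotropin-releasing hormone (Crh) and thyrotropin-releasing hormone (Trh) are made in the paraventricular nucleus for this purpose, growth hormone-releasing hormone (Ghrh) in the arcuate nucleus, hypophysiotropic somatostatin (Sst) in the periventricular nucleus, and gonadotropin-releasing hormone (Gnrh1) in a few scattered neurons of the preoptic area. Crh drives the stress axis, Trh the thyroid axis and Gnrh1 the reproductive axis, whereas Ghrh stimulates and Sst inhibits the release of growth hormone. Sst, Trh and Crh are also made by many neurons that do not project to the median eminence. In dissected tissue, fewer cells of a type and less RNA per cell cannot be told apart.

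Upstream sequence is shown because these genes differ in the letters next to their starts. Upstream windows of 250 bases ending at the transcription start were available for 3 of the 5 genes in RefSeq on GRCm38.p6, which is not the GRCm39 build of the counts. Capitals mark TGACGTCA, the full palindromic cAMP response element, in Sst, a TGACCTCA that differs from it and a TATAAG in Trh, and a TATAAA in Ghrh, for which the more downstream of its 2 listed starts is shown. All lie on the minus strand, Sst at chr16:23890845-23891094, Trh at chr6:92244651-92244900 and Ghrh at chr2:157337427-157337676.
Sst: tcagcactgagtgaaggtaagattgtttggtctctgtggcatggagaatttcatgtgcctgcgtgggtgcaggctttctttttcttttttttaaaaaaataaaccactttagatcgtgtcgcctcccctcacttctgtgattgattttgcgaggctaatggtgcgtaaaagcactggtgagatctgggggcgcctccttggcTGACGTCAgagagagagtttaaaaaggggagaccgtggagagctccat
Trh: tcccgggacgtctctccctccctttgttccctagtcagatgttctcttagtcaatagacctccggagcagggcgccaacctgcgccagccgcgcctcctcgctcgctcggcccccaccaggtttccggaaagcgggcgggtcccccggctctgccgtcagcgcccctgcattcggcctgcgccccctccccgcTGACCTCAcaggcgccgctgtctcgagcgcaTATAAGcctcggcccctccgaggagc
Ghrh: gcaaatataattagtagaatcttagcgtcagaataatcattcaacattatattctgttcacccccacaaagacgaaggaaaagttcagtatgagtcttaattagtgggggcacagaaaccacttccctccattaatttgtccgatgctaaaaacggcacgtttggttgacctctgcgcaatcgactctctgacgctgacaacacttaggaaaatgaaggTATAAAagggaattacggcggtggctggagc

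The TGACGTCA of Sst spanned bases 48 to 41 before the start, and the TGACCTCA of Trh bases 57 to 50. Of 32851 such windows, searched on both strands, 1.55% held TGACGTCA and 1.94% held TGACCTCA. The TATAAA of Ghrh lay at bases 31 to 26 (12.4% of windows held these letters anywhere) and the TATAAG of Trh at bases 26 to 21 (6.65%). The shorter CGTCA, which is part of TGACGTCA, occurred in the windows of Sst, Trh and Ghrh and in 17.8% of all windows. These matches describe the letters and not the binding of any factor.

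Counted reads per library ran from 15655156 to 26284661, and genes with at least 1 read from 24450 to 38081. Dissection markers differed between libraries. Oxt and Avp, which define the magnocellular neurons of the paraventricular and supraoptic nuclei, had 4.04 and 8.42 CPM (counts scaled to a common library total) in Ob + CUR, against at least 202 and 249 CPM in each of the other 11 libraries. In Ob + RSV replicate 3 the mediobasal genes Nr5a1 (ventromedial nucleus) and Rax (tanycytes) had no reads and Pomc, the precursor of α-MSH, had 2.53 CPM, against 29.4 to 180 CPM elsewhere. Of the other arcuate, ventromedial and tanycyte markers, Tbx3 (0.823 CPM), Cartpt (38.3 CPM) and Col23a1 (11.2 CPM) were lowest there too. Agrp (0.941 CPM), Npy (7.35 CPM), Fezf1 (6.35 CPM) and Dio2 (8.59 CPM) lay inside the range of the other libraries. Ob + CUR and Ob + RSV replicate 3 stand apart from the rest by these markers, and results of the 5 genes that rest on them are given with and without them. Of 7 pituitary markers Lhb had 0 reads in every library, Tshb 0.797 to 4.23 CPM and Gh at most 8.91 CPM, and their sum was highest in C replicate 3, with 16.2 CPM against 0.797 to 6.26 CPM in the other 11.

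Sst was by far the most abundant of the 5 genes and Gnrh1 the rarest. Levels per kilobase of exon, which allow genes to be compared, had a median over the 12 libraries of 253 CPM per kb for Sst (range 111 to 424), 72.3 for Trh (12.3 to 105), 11.4 for Ghrh (3.61 to 21.2), 6.45 for Crh (1.34 to 12.1) and 2.91 for Gnrh1 (1.16 to 13.3). Sst lay above Trh in every library, and the ranges of Sst and Trh did not overlap. The ranges of Ghrh, Crh and Gnrh1 overlapped, so the order among these neighbours was not the same in all libraries. Gnrh1 rested on 16 to 134 reads per library and Sst on 1863 to 7662, and the exact 95% Poisson intervals drawn for each library cover counting error only.

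**Figure D1:**
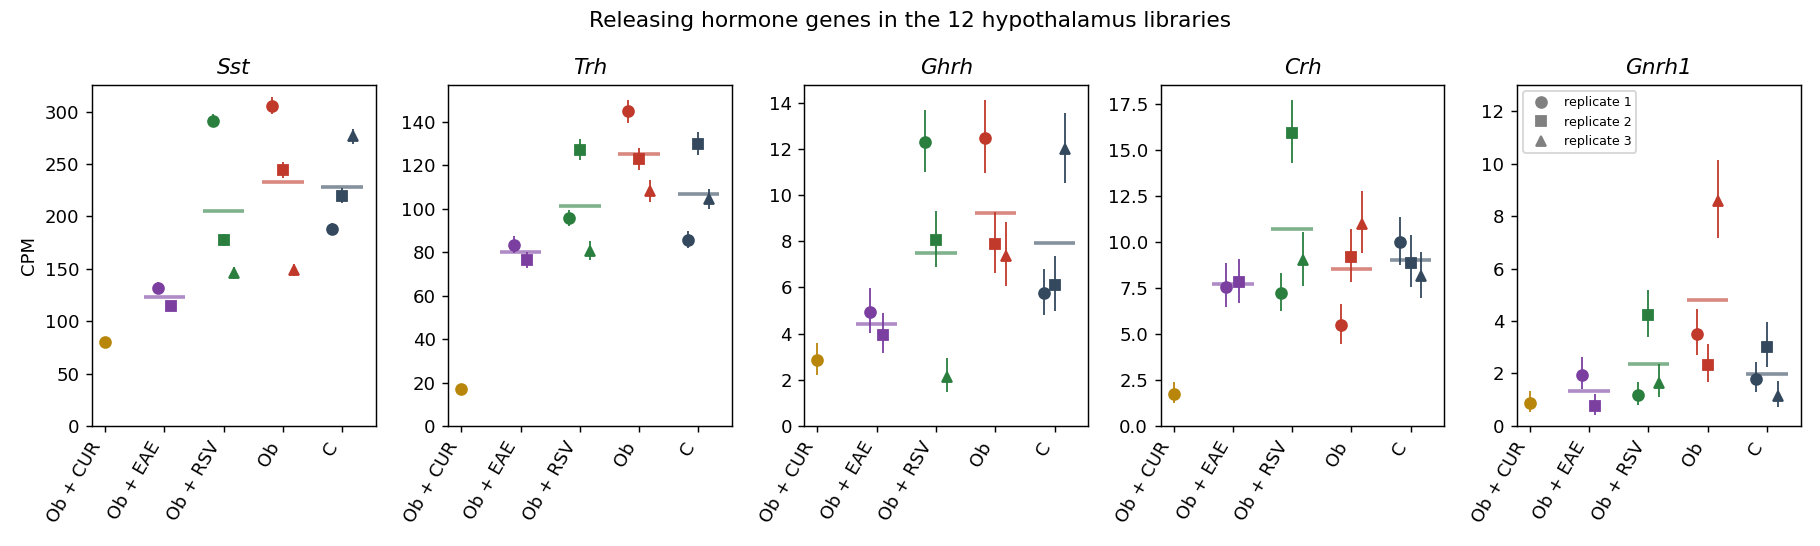
CPM of the 5 genes in each library, with 1 panel per gene and its own linear axis from 0. Points are libraries with their exact 95% Poisson intervals, shapes are replicate numbers and horizontal lines are group means; Trh in Ob + CUR (17.1 CPM) sits far below the other 11 libraries (76.4 to 145 CPM).

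The first comparison of the design asks what diet-induced obesity does, Ob vs. C. Trh, whose product stimulates the release of thyrotropin and prolactin, had 145, 123 and 108 CPM in Ob, against 85.8, 130 and 104 CPM in C. Crh, the main stimulus of corticotropin release, had 5.46, 9.19 and 10.99 CPM in Ob, against 10.01, 8.88 and 8.15 CPM in C. Both genes overlapped between the groups, with a log2FC of 0.29 (SE 0.22) for Trh and −0.05 (SE 0.34) for Crh. The genes of the growth hormone axis overlapped as well. Ghrh had 12.5, 7.87 and 7.35 CPM in Ob, against 5.75, 6.09 and 12.0 CPM in C, and Sst had 306, 244 and 149 CPM in Ob, against 188, 220 and 276 CPM in C. The highest C library of each exceeded at least 2 Ob libraries, and the log2FC was 0.28 (SE 0.44) for Ghrh and 0.09 (SE 0.26) for Sst. Gnrh1 had 3.50, 2.31 and 8.56 CPM in Ob, against 1.79, 3.02 and 1.15 CPM in C.

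Gnrh1 thus had the largest estimate of the 5 in Ob vs. C, a log2FC of 1.29 (SE 0.60, unadjusted p = 0.0405 by edgeR's quasi-likelihood test). It depended in part on Ob replicate 3, which held the highest value. Without that library the log2FC was 0.64. A DEG had to reach a log2FC of 1 in either direction together with a Benjamini-Hochberg adjusted p under 0.05, and by edgeR 0 of the 5 genes did, each with an adjusted p of 1. The background was the same, since 0% of the 33534 genes tested passed this threshold by edgeR or by DESeq2, with 453 genes higher (1.35%) and 469 lower at an unadjusted p under 0.05 by edgeR, where Gnrh1 was the 1 member. The median log2FC of the 5 genes was 0.28, beside −0.00 over all genes tested.

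**Figure D2:**
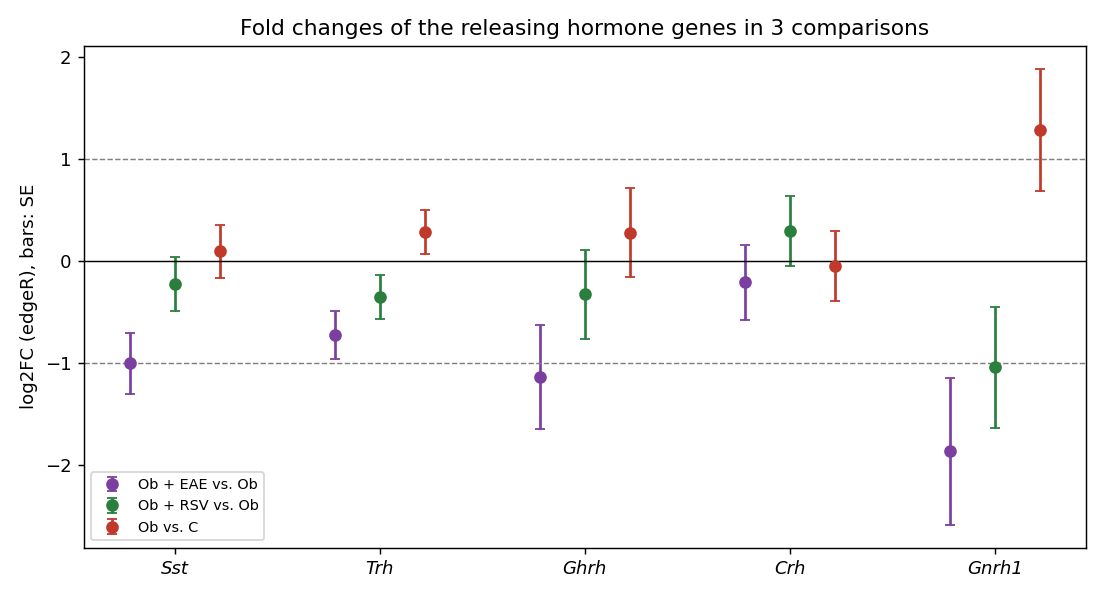
Log2FC of each gene in Ob + EAE vs. Ob, Ob + RSV vs. Ob and Ob vs. C, from edgeR, with bars of 1 SE and dashed lines at the log2FC of 1 in either direction required of a DEG. The Ob + EAE vs. Ob estimates run from −0.21 (Crh) to −1.87 (Gnrh1), and the Ob + RSV and Ob + EAE comparisons share the same 3 Ob libraries.

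Resveratrol was compared with untreated obesity in Ob + RSV vs. Ob. Crh had 7.23, 15.9 and 8.997 CPM in Ob + RSV, against 5.46, 9.19 and 10.99 CPM in Ob, and Trh had 95.6, 127 and 80.7 CPM in Ob + RSV, against 145, 123 and 108 CPM in Ob. Sst had 292, 177 and 146 CPM in Ob + RSV, against 306, 244 and 149 CPM in Ob. The libraries of both groups were interleaved for each of these genes, with a log2FC of 0.29 (SE 0.34) for Crh, −0.35 (SE 0.22) for Trh and −0.23 (SE 0.26) for Sst. Ghrh had 12.3, 8.04 and 2.12 CPM in Ob + RSV, against 12.5, 7.87 and 7.35 CPM in Ob. The lowest of these belonged to Ob + RSV replicate 3, the library without reads of Nr5a1 and Rax, and the log2FC of Ghrh was −0.33 (SE 0.44) with it and 0.11 without it.

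Gnrh1 had 1.18, 4.23 and 1.65 CPM in Ob + RSV, against 3.50, 2.31 and 8.56 CPM in Ob. Its log2FC of −1.05 (SE 0.60, unadjusted p = 0.0892 by edgeR) changed to −0.40 without Ob replicate 3, a library that this comparison shares with Ob vs. C. As in Ob vs. C, 0 of the 5 genes and 0% of all genes passed the threshold for a DEG by edgeR or DESeq2, and 0 of the 5 had an unadjusted p under 0.05 by edgeR (over all genes, 1.66% were higher and 1.5% lower). Against C, the Ob + RSV libraries gave log2FC values of 0.24 for Crh, −0.07 for Trh, −0.13 for Sst, −0.05 for Ghrh and 0.24 for Gnrh1 (SE 0.22 to 0.60). Again 0 of the 5 genes and 0% of all genes were called in Ob + RSV vs. C by edgeR or DESeq2, and 0 of the 5 had an unadjusted p under 0.05 by edgeR (over all genes, 1.47% were higher and 1.4% lower). The log2FC of Ghrh and Gnrh1 carried an SE of 0.44 and 0.60 in these fits. What size of change 3 libraries a group could detect was not tested.

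The Ob + EAE group had the lowest mean of each of the 5 genes among the groups with replicates. Sst had 132 and 115 CPM in Ob + EAE, against 306, 244 and 149 CPM in Ob, and Trh had 83.4 and 76.4 CPM in Ob + EAE, against 145, 123 and 108 CPM in Ob. Ghrh had 4.92 and 3.95 CPM in Ob + EAE, against 12.5, 7.87 and 7.35 CPM in Ob. Each of these genes was lower in both Ob + EAE libraries than in any Ob library. Gnrh1 did the same, with 1.94 and 0.743 CPM in Ob + EAE, against 3.50, 2.31 and 8.56 CPM in Ob. Crh was the exception, with 7.58 and 7.80 CPM in Ob + EAE inside the range of 5.46 to 10.99 CPM in Ob.

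The log2FC in Ob + EAE vs. Ob was −1.004 for Sst (SE 0.30, adjusted p = 0.0698), −0.73 for Trh (SE 0.23, adjusted p = 0.101), −1.14 for Ghrh (SE 0.51, adjusted p = 0.299), −1.87 for Gnrh1 (SE 0.72, adjusted p = 0.196) and −0.21 for Crh (SE 0.37, adjusted p = 0.917), by edgeR's quasi-likelihood test with Benjamini-Hochberg adjustment. Thus 0 of the 5 genes were DEGs by edgeR, while 1.84% of all 36164 genes were, 276 higher and 389 lower. With an unadjusted p under 0.05, 4 of the 5 were lower, beside 6.48% of all genes and 13% of those with a mean of at least 1 CPM. Groups without overlap, lower in Ob + EAE, were found for 4 of the 5 genes, beside 13.7% of all genes and 23.2% of those with a mean of at least 1 CPM. The median log2FC of the 5 genes was −1.004, beside 0.05 over all genes tested. DESeq2 called Sst (log2FC −1.02, adjusted p = 0.0307), beside 2.5% of all genes. Without Ob replicate 3 edgeR called Sst as well (log2FC −1.25, adjusted p = 0.00666), beside 3.29% of all genes. Without Ob replicate 1 the log2FC of Sst was −0.70 (adjusted p = 0.519 by edgeR).

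Region markers moved with this comparison too. The paraventricular and supraoptic list (Oxt, Avp, Sim1, Otp) summed to 584 to 704 CPM in Ob + EAE, against 995 to 2299 CPM in Ob. Oxt and Avp, with 537 and 577 bases of exon, made up most of this sum. Otp lay inside the Ob range, and Sim1 was higher, with 15.7 and 17.9 CPM in Ob + EAE, against 7.94, 12.5 and 10.99 CPM in Ob. The arcuate list (Agrp, Npy, Pomc, Tbx3, Cartpt) summed to 133 to 156 CPM in Ob + EAE, against 207 to 505 CPM in Ob. The suprachiasmatic list summed to 25.8 to 26.7 CPM in Ob + EAE, against 50.0 to 58.4 CPM in Ob. The tanycyte list summed to 19.0 to 20.7 CPM in Ob + EAE, against 37.7 to 58.0 CPM in Ob. The list of telencephalic interneurons (Lhx6, Pvalb, Nkx2-1, Chodl) summed to 66.4 to 68.9 CPM in Ob + EAE, against 90.3 to 108 CPM in Ob. In it Nkx2-1 and Pvalb were lower in both Ob + EAE libraries than in any Ob library, while Lhx6 and Chodl lay inside the Ob range. The ventromedial list went the other way, with 44.1 to 44.8 CPM in Ob + EAE, against 28.9 to 36.9 CPM in Ob. The striatum list (141 to 154 against 127 to 131 CPM) and the choroid plexus list (10.3 to 10.7 against 5.05 to 9.35 CPM) were higher too, as was the low pituitary sum. Oligodendrocyte genes were lower (4647 to 4978 against 5946 to 6522 CPM). The lists of lateral hypothalamus, thalamus, cortex and hippocampus, astrocytes, microglia and red cells overlapped. All these sums are in plain CPM, and the trend on transcript length described next was not removed from them. The part of these lists in the levels of the 5 genes was not tested. Leaving out 1 library at a time, the log2FC of Gnrh1 in Ob + EAE vs. Ob ranged from −2.69 to −1.21 and that of Ghrh from −1.29 to −0.79.

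Transcript length moved with this comparison. All 5 genes are short in total exon length, from 587 bases for Ghrh to 1384 bases for Trh, and short genes as a whole were lower in Ob + EAE vs. Ob. The median log2FC was −0.65 over 1252 genes under 800 bases, −0.53 over 2389 genes of 800 to 1600 bases, −0.21 over 5203 genes of 1600 to 3200 bases and 0.25 over 8034 longer genes. Sst, Ghrh and Gnrh1 fall in the shortest class, and Crh and Trh in the next. Removing each library's trend on exon length and GC content, an alternative chosen after seeing the data, left log2FC values of −0.43 for Sst, −0.31 for Trh, −0.55 for Ghrh, −1.50 for Gnrh1 and 0.09 for Crh, with adjusted p from 0.517 to 0.999 by edgeR. Every member's estimate became higher by this step, and that of Crh changed sign. In Ob vs. C the same length classes had medians of 0.21, 0.21, 0.09 and −0.12, from short to long.

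**Figure D3:**
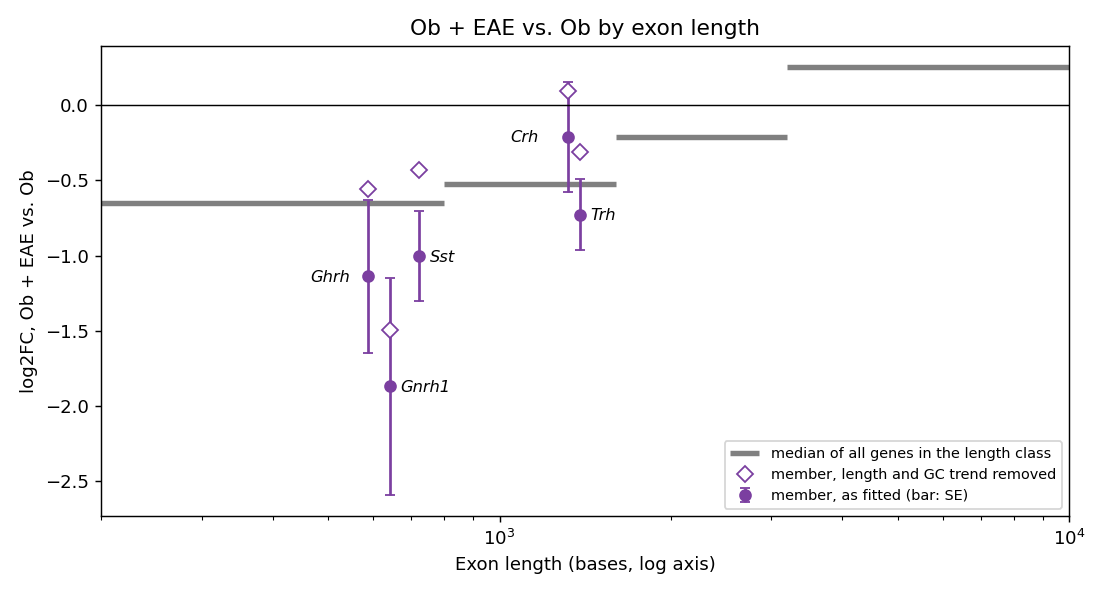
Log2FC in Ob + EAE vs. Ob against exon length in bases on a log axis. Filled points are the 5 genes with bars of 1 SE, open diamonds are the same genes after removal of the trend on length and GC content, and grey lines are the median of all genes in a length class (−0.65 for the shortest); Sst stands at −1.004 as fitted and at −0.43 with the trend removed.

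Against lean controls the pattern was similar in direction, in a comparison added after seeing the data. The same 2 Ob + EAE libraries entered both comparisons, so they are not independent. In Ob + EAE vs. C the log2FC was −0.89 for Sst (SE 0.30, adjusted p = 0.776 by edgeR), −0.85 for Ghrh, −0.57 for Gnrh1, −0.42 for Trh and −0.24 for Crh. Leaving out 1 library at a time moved Gnrh1 between −1.42 and −0.0083, Ghrh between −1.01 and −0.45, Trh between −0.52 and −0.27 and Crh between −0.34 and −0.12. Both Ob + EAE libraries lay below each C library for Sst, Ghrh, Trh and Crh but not for Gnrh1, beside 10% of all genes and 16.9% of those with a mean of at least 1 CPM. Of the 5 genes 0 were DEGs by edgeR or DESeq2, while 0.0138% of all genes were by edgeR. Sst was the 1 member lower at an unadjusted p under 0.05 by edgeR, beside 2.2% of all genes. The length classes had medians of −0.42, −0.28, −0.10 and 0.15 in Ob + EAE vs. C, from short to long. With the trend on length and GC content removed, the log2FC was −0.61 for Sst, −0.53 for Ghrh, −0.35 for Gnrh1, −0.22 for Trh and −0.05 for Crh.

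The single curcumin library held the lowest levels of Trh, Crh and Sst of all 12. Trh had 17.1 CPM in Ob + CUR, against a range of 76.4 to 145 CPM in the other 11 libraries, and Crh had 1.76 CPM against 5.46 to 15.9 CPM. Sst had 80.05 CPM, against 115 to 306 CPM elsewhere. Relative to Ob + CUR the mean of Ob was 7.34-fold higher for Trh, 4.85-fold for Crh and 2.91-fold for Sst. The trend on length and GC content was not removed from these folds. Its fitted log2 value was −0.31 in Ob + CUR against 0.05 to 0.54 in Ob for Sst. For Trh it was −0.23 against 0.03 to 0.36, and for Crh −0.17 against 0.07 to 0.23. Ghrh (2.84 CPM) and Gnrh1 (0.859 CPM) were each second from the bottom, above Ob + RSV replicate 3 for Ghrh and above Ob + EAE replicate 2 for Gnrh1. With 1 library there is no replicate check of any of these values. A level below all 11 other libraries was seen for 3 of the 5 genes, beside 5.84% of genes with a mean of at least 1 CPM and 3.12% of all genes tested.

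Some other hypothalamic neuropeptides were lowest in Ob + CUR too, and others were not. The Ob mean was 138-fold higher for Oxt and 112-fold for Avp than the Ob + CUR library, and 26.2-fold for Hcrt, the orexin precursor of the lateral hypothalamus. Adcyap1, the PACAP precursor, was instead highest in Ob + CUR, with 175 CPM against 57.5 to 127 CPM in the other 11 libraries, and Npy (26.5 CPM), Npvf (11.5 CPM) and Tac2 (33.5 CPM) lay inside the range of the others. The whole paraventricular and supraoptic list (Oxt, Avp, Sim1, Otp) summed to 79.0 CPM in Ob + CUR, against 584 to 704 CPM in Ob + EAE, 530 to 1314 CPM in Ob + RSV, 995 to 2299 CPM in Ob and 981 to 1438 CPM in C. Within that list Sim1, a transcription factor needed for paraventricular neurons, stood at 24.3 CPM in Ob + CUR, against 7.54 to 17.9 CPM elsewhere. Foxb1, a gene of the mammillary region, was highest in Ob + CUR, with 57.2 CPM against 3.00 to 24.2 CPM in the other 11 libraries. Curcumin and the position of this dissection cannot be told apart with 1 library.

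**Figure D4:**
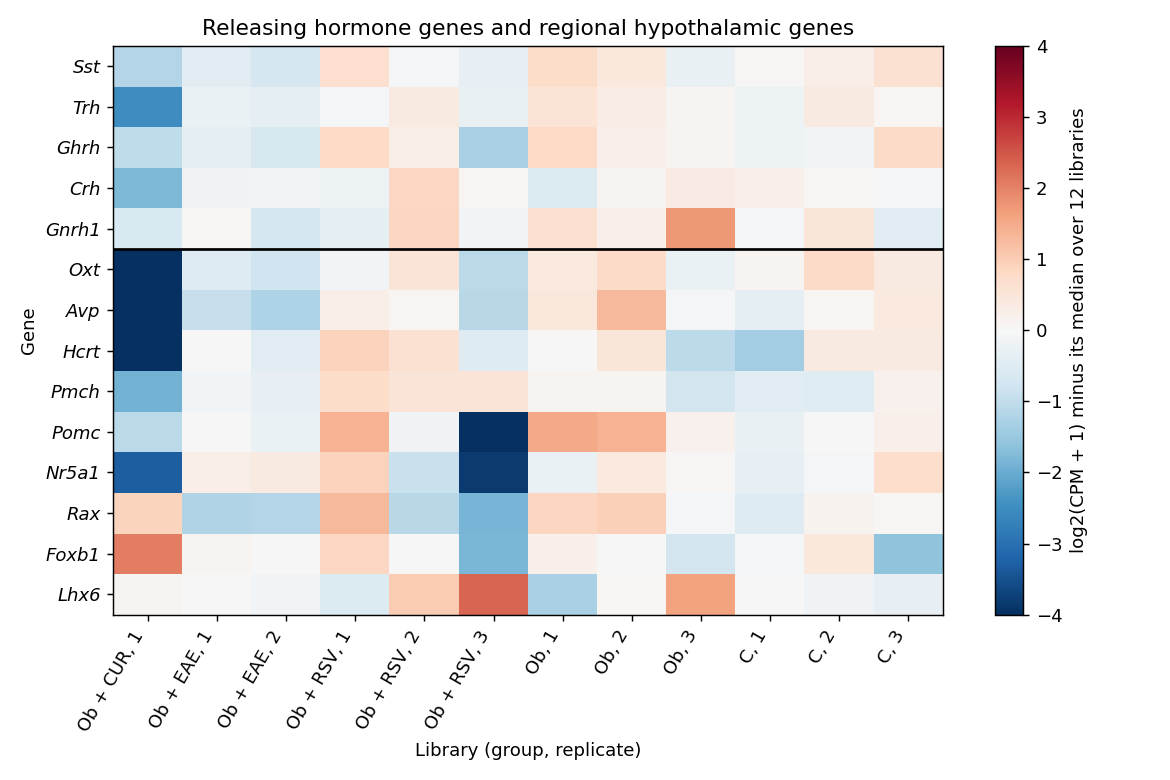
Heat map of log2(CPM + 1) minus its median over the 12 libraries, for the 5 genes (above the line) and for genes that mark hypothalamic regions, with libraries as columns by group and replicate. The color scale saturates at 4 units on either side; Oxt (4.04 CPM) and Trh (17.1 CPM) are low together in Ob + CUR, and Pomc (2.53 CPM) and Ghrh (2.12 CPM) in Ob + RSV replicate 3.

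Asked whether a gene differed among the 5 groups in any way, edgeR's F test over the 12 libraries called Trh (F = 18.3, adjusted p = 0.000577), as 1 of 263 genes (0.727% of those tested). The other 4 did not pass, with an adjusted p of 0.0703 for Sst, 0.101 for Crh, 0.453 for Gnrh1 and 0.632 for Ghrh by edgeR. The call on Trh rested on Ob + CUR, since without that library the adjusted p of Trh was 0.614 (unadjusted p = 0.0497) and 0 members were called by edgeR, with Trh, Sst and Gnrh1 at an unadjusted p under 0.05. Sst and Crh also passed without C replicate 3 or without Ob + RSV replicate 3 (3 members called each time), and Sst without Ob replicate 3 or without Ob + RSV replicate 1 (2 members each). Calls over all genes were more numerous in these settings as well, at 2.09%, 2.82%, 2.5% and 1.6% of the genes tested, and 0.189% were called without Ob + CUR.

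Replicates of a group differed least for Trh and most for Ghrh and Gnrh1. The SD of log2 CPM within groups was 0.29 for Trh, 0.39 for Crh and 0.49 for Sst, beside a median of 0.34 over 17733 genes with a mean of at least 1 CPM. For Ghrh it was 0.83 and for Gnrh1 0.83, which placed both at about the 90th percentile (90.5 and 90.3). Among genes within 2-fold of each member's mean level, the percentile was 95.4 for Sst, 94.2 for Ghrh, 72.8 for Gnrh1, 68.7 for Trh and 51.0 for Crh. Ghrh had its lowest value in Ob + RSV replicate 3, where Nr5a1 and Rax had no reads, and without that library its SD was 0.48, while that of Gnrh1 was 0.88. Gnrh1 peaked in Ob replicate 3 (8.56 CPM) and Ob + RSV replicate 2 (4.23 CPM). Lhx6, a gene of telencephalic and preoptic interneurons, had 29.9 and 19.3 CPM in these libraries, and 49.6 CPM in Ob + RSV replicate 3, where Gnrh1 was at 1.65 CPM. In the other 9 libraries Lhx6 ran from 3.04 to 9.93 CPM, and it was lowest in Ob replicate 1, where Gnrh1 was at 3.50 CPM. The other telencephalic interneuron markers did not share this profile. Chodl was the highest of the 12 libraries in Ob replicate 3 (17.6 CPM) and the lowest in Ob + RSV replicate 2 (6.02 CPM). Pvalb (19.4 and 25.9 CPM) and Nkx2-1 (41.5 and 31.2 CPM) lay inside the range of the remaining libraries in both. The part of the dissection in these differences was not tested.

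Across the 12 libraries Sst varied with Ghrh and with Trh. Of 10 pairs of the 5 genes, 3 passed a permutation test of Pearson's r on log2 CPM (100000 resamples, two-sided, Benjamini-Hochberg over the 10 pairs). Sst and Ghrh, the opposing arms of the growth hormone axis, had r = 0.85 and Spearman's rho = 0.90 (raw p = 0.00059 and 0.00022, adjusted p = 0.0031 and 0.0022 by permutation), and r was 0.78 without the 2 libraries farthest from the median of Sst. Trh and Sst had r = 0.78 and rho = 0.81 (raw p = 0.00062 and 0.00241, adjusted p = 0.0031 and 0.012 by permutation), and r = 0.64 without the 2 farthest. Trh and Ghrh had r = 0.65 and rho = 0.77 (raw p = 0.0146 and 0.0051, adjusted p = 0.0486 and 0.017 by permutation), and r = 0.63 without the 2 farthest. This last call did not hold with plain CPM (adjusted p = 0.0754 by permutation) or with 8 of the 12 libraries left out singly (adjusted p from 0.0537 to 0.108), whereas the other calls held in all 12. Crh and Trh had an r of 0.83 that rested on Ob + CUR: rho was 0.34 and r was −0.24 without the 2 farthest libraries. By rho alone, Trh and Gnrh1 passed too (rho = 0.71, adjusted p = 0.0277 by permutation, with r = 0.565 and adjusted p = 0.112).

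Within groups these relations were weaker. With deviations from the group means (11 libraries), Sst and Ghrh was the 1 pair of 10 that passed, and Crh and Sst had r = −0.61 (adjusted p = 0.148 by permutation). Deviations within a group depend on each other but were permuted freely over the 11 libraries, so the p-values of this setting may be too small. In the 9 libraries of Ob + RSV, Ob and C, 1 pair passed as well. With the trend on length and GC content removed, 0 of 10 pairs passed by r and Trh and Gnrh1 passed by rho (0.79, adjusted p = 0.0322 by permutation), and r was 0.68 for Sst and Ghrh (adjusted p = 0.0729 by permutation), 0.69 for Trh and Sst and 0.49 for Trh and Ghrh. All 10 relations share the same libraries, depths and dissections.

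**Figure D5:**
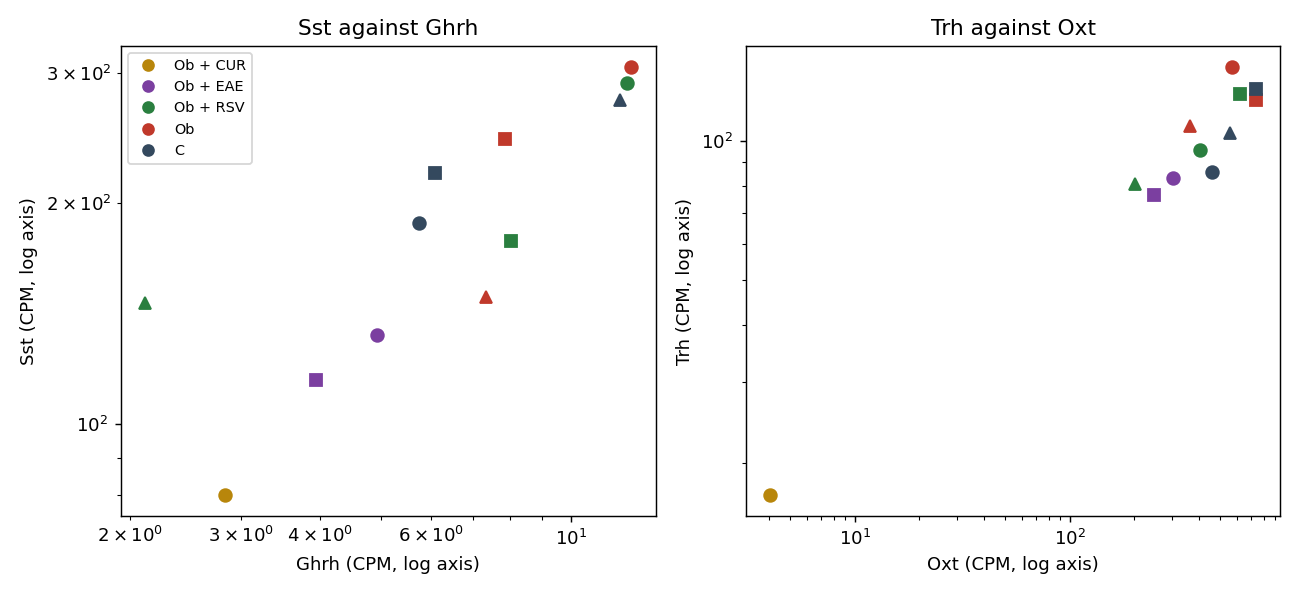
Sst against Ghrh (left) and Trh against Oxt (right) in CPM on log axes, 1 point per library, with colors for groups and circles, squares and triangles for replicates 1, 2 and 3. Sst and Ghrh reach their highest levels in the same 3 libraries (Ob + RSV replicate 1, Ob replicate 1 and C replicate 3), and the Ob + CUR library lies at 4.04 CPM of Oxt and 17.1 CPM of Trh.

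The genes whose profile over the 12 libraries was most like that of each member were read from 16878 genes with a symbol and a mean of at least 1 CPM, as a description. Trh followed Oxt, the oxytocin precursor (r = 0.98, rho = 0.89), and Avp, the vasopressin precursor (r = 0.97, rho = 0.89), and r stayed at 0.91 and 0.85 without the 2 libraries farthest from the median of Trh. Next came Gm25492, Rftn1 and Hcrt, with r of 0.93, 0.91 and 0.90. Crh was most like Hcrtr1, the orexin receptor 1 (r = 0.91), Zfp7, Serpinf1, Oxt (r = 0.87) and Asic4 (r = 0.87), but for Oxt r was 0.015 without the 2 farthest libraries.

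Sst and Ghrh had no neuropeptide gene among their nearest 5. Sst was most like Tpd52l1 (r = 0.98), Gpatch4, Nsfl1c, Tmub2 and 2210016L21Rik (r = 0.95), and Ghrh like Fkbp11 (r = 0.96), Ehbp1l1, 1700001L19Rik, Pdxp and Ppdpf (r = 0.94). Gnrh1 had looser matches, led by Ccdc137 (r = 0.84) and followed by Styk1, Mad2l2, Glt1d1 and Rpl19-ps6 (r = 0.79).

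Receptors and regulators of the peptides outside the cell were measured for 11 of 13 listed genes. Ghrhr and Gnrhr, the pituitary receptors of Ghrh and Gnrh1, were not tested, with at most 0.455 and 0.0958 CPM in any library. The 1 DEG among the pathway genes was Sstr1, a somatostatin receptor, in Ob + EAE vs. Ob. It had 18.3 and 19.6 CPM in Ob + EAE, against 3.14, 6.22 and 4.79 CPM in Ob, a log2FC of 1.94 (SE 0.45, adjusted p = 0.0203 by edgeR). Its level in both Ob + EAE libraries was above every Ob library, whereas C was split, with 16.5, 15.8 and 3.21 CPM. Removal of the length and GC trend left 2.26 (adjusted p = 0.0184 by edgeR), but the call was lost without Ob replicate 1 (1.76, adjusted p = 0.199) or without Ob + EAE replicate 2 (1.93, adjusted p = 0.202), without C replicate 2, Ob replicate 1 and Ob + RSV replicate 2 together (1.74, adjusted p = 0.311), or with a stricter filter on low counts (filterByExpr, 1.94, adjusted p = 0.0759), by edgeR. In Ob vs. C Sstr1 had the smallest p of the receptor list (log2FC −1.29, SE 0.46, unadjusted p = 0.00862 by edgeR) and was not a DEG. In the same list Crhr2, a receptor of Crh and the urocortins, had the smallest p in Ob + RSV vs. Ob (log2FC −0.65, SE 0.32) and Sstr1 in Ob + RSV vs. C (−0.85, SE 0.45). In Ob + EAE vs. C it was Trhde, the ectoenzyme that breaks down the Trh peptide, with 18.1 ± 1.51 CPM in Ob + EAE (SD, n = 2) and 11.2 ± 1.16 CPM in C (SD, n = 3), a log2FC of 0.68 (SE 0.31, adjusted p = 1 by edgeR).

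None of the other pathway lists held a DEG in any comparison by edgeR. The 14 genes of hormone feedback had a median log2FC of 0.52 in Ob + EAE vs. Ob. With an unadjusted p under 0.05 by edgeR, 5 were higher and 0 lower. Over all genes 6.87% were higher, as were 2197 of the 17733 genes with a mean of at least 1 CPM. Nr3c1, the glucocorticoid receptor through which corticosterone restrains Crh, had 81.9 ± 3.54 CPM in Ob + EAE (SD, n = 2) and 45.1 ± 7.33 CPM in Ob (SD, n = 3), and its log2FC of 0.80 (SE 0.22, adjusted p = 0.0446 by edgeR) fell short of the minimum of 1. With the length and GC trend removed it was 0.36 (adjusted p = 0.526 by edgeR). Fkbp5, a glucocorticoid-induced chaperone partner of that receptor, had 21.9 ± 6.26 CPM in Ob + RSV and 39.3 ± 18.4 CPM in Ob (SD, n = 3 each), with a log2FC of −0.89 (SE 0.32, adjusted p = 1 by edgeR) and overlapping groups. Leaving out 1 library at a time moved this estimate between −1.18 and −0.43, smallest in size without Ob replicate 1. In Ob + RSV vs. C Fkbp5 had the smallest p as well (−0.65, SE 0.32, unadjusted p = 0.0479 by edgeR), with −0.19 without C replicate 1, and in Ob + EAE vs. C it was Nr3c1 (0.38, SE 0.22). In Ob vs. C Nr3c1 had the smallest p of this list (log2FC −0.43, SE 0.21), and 0 of its genes had an unadjusted p under 0.05 by edgeR.

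Of the 6 genes that process prohormones, Scg5, the chaperone of prohormone convertase 2, had 183 ± 18.0 CPM in Ob + EAE (SD, n = 2) and 297 ± 55.1 CPM in Ob (SD, n = 3), a log2FC of −0.78 (SE 0.23, adjusted p = 0.0662 by edgeR), and −0.49 with the trend removed. It also had the smallest p in Ob + EAE vs. C (−0.64, SE 0.23, adjusted p = 0.859 by edgeR). Pcsk1n, an inhibitor of prohormone convertase 1, had the smallest p of this list in Ob vs. C (log2FC 0.64, SE 0.34) and in Ob + RSV vs. Ob (log2FC −0.75, SE 0.34), with overlapping groups. Without Ob replicate 1, which had 4317 CPM, these were 0.16 and −0.25. Pcsk1 itself was at −0.31 (SE 0.21) in Ob + RSV vs. C. Both convertases act on several of these precursors.

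Among the transcription factors of releasing hormone neurons, 11 of 11 were tested. Arnt2, a partner of Sim1 in paraventricular neurons, was at 0.68 (SE 0.22, adjusted p = 0.0985 by edgeR) in Ob + EAE vs. Ob, and at 0.36 with the trend removed, and it was at 0.51 (SE 0.22) in Ob + EAE vs. C. Vax1, a homeobox factor required for Gnrh1 neurons in mice, had 3.53 ± 0.856 CPM in Ob + RSV, 6.67 ± 0.521 CPM in Ob and 6.70 ± 1.68 CPM in C (SD, n = 3 each). It had the smallest p of this list in both resveratrol comparisons. The log2FC was −0.97 (SE 0.39, adjusted p = 1 by edgeR) in Ob + RSV vs. Ob and −0.92 (SE 0.39) in Ob + RSV vs. C. In Ob vs. C the smallest p belonged to Hmx2, a homeobox factor of Ghrh neurons, at 0.95 (SE 0.46, unadjusted p = 0.0468 by edgeR). None of these passed the adjusted threshold.

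Of 8 related peptides, 6 were tested, and Kiss1, whose product stimulates Gnrh1 neurons, had 0 reads in every library. The smallest p of this list belonged to Tac2, the neurokinin B gene, in Ob + EAE vs. Ob (log2FC −0.69, SE 0.25, adjusted p = 0.157 by edgeR) in Ob + EAE vs. C (−0.38, SE 0.25) and in Ob + RSV vs. C (0.56, SE 0.24), to Npvf, the precursor of gonadotropin-inhibitory peptides, in Ob + RSV vs. Ob (−1.12, SE 0.61), and to Ucn3, urocortin 3, in Ob vs. C (−0.68, SE 0.50). None was a DEG by edgeR. Without Ob + RSV replicate 3, where Npvf had 0.0588 CPM, the estimate was −0.56 for Npvf in Ob + RSV vs. Ob and 0.32 for Tac2 in Ob + RSV vs. C, and without C replicate 2 it was −0.13 for Ucn3 in Ob vs. C. In Ob + CUR Ucn3 had 0.0430 CPM, against 1.70 to 10.9 CPM in the other 11 libraries, and Vax1 had 0.859 CPM, against 2.70 to 10.04 CPM. Ob + CUR again held the lowest value of both.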

How the data were processed

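Hypothalamic poly(A) RNA was sequenced as stranded paired-end libraries, and the authors deposited whole-number read counts per gene, which were used as deposited. Their methods give HISAT2 alignment and featureCounts counting, and the processing notes name FastQC, featureCounts and GRCm39. The annotation release is not given in the sources used here, nor is the strand setting, and reads of overlapping antisense transcripts may therefore not be separated.

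Counts were tested with edgeR 4.0.16 (quasi-likelihood test with TMM scaling, on genes whose reads summed to 10 or more) in R 4.3.3, in a fit of 9 libraries (Ob + RSV, Ob and C; 6 residual degrees of freedom, 33534 genes) and a fit of all 12 (7 residual degrees of freedom, 36164 genes) for Ob + EAE and for the test over all groups. There the lone Ob + CUR library adds nothing to the spread. A DEG required a Benjamini-Hochberg adjusted p under 0.05 over all genes tested and a log2FC of at least 1 in size, and the test over all groups the adjusted p alone. SE is the size of the log2FC divided by the square root of F. CPM are counts divided by the counted reads of the library and scaled to a common total, per kilobase of the union of exons of GENCODE vM21 matched by ID where stated, and log2 CPM used TMM scaling and a prior count of 2. Alternatives were DESeq2 1.42.0, RLE, upper quartile and no scaling, other filters, other sets of libraries, a replicate block and leaving out each library, with the length and GC trend (mgcv 1.9.3) and Ob + EAE vs. C added after seeing the data.

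The edgeR fit of Ob vs. C was also run on simulated counts of its 9 libraries with known changes added, and the outcome is not reported here. That simulation held no length trend or dissection difference. It did not cover Ob + EAE or the test over all groups. Correlations were tested with 100000 permutations. Libraries within a group differed beyond counting noise (chi-square per degree of freedom of 5.78 or more) and each counted as 1 sample, which does not show that they came from separate mice. The 5 genes and the lists of pathway and region genes were chosen with earlier results of these data known. Of each pathway list, the gene with the smallest p in a comparison and any DEG are named, region markers are named by their levels, and the 5 genes most like each member by Pearson's r. The sum of the mammillary markers is not reported here. Python 3.11.15 with scipy 1.17.1, pandas 2.3.3 and matplotlib 3.10.9 served for correlations and plots.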

Additional observations from a re-analysis of the deposited data

How the results depend on the processing

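Ob vs. C, Ob + RSV vs. Ob and Ob + RSV vs. C called 0 members under every alternative, except that Gnrh1 alone passed (1, beside 1.16% of all genes) in Ob vs. C at an unadjusted p under 0.05 with the log2FC minimum. That threshold gave 3 members in Ob + EAE vs. Ob, beside 4.86% of all genes. There DESeq2 gave 1 (2.5% of all genes) and leaving out 1 library 0 to 1 (3.29% without Ob replicate 3, which gave the 1). Over all groups, the filter of 1 read (2.97% of all genes) and DESeq2 (2.55%) gave 3 members each. Leaving out 1 library gave 0 to 3, with 0.189% of all genes without Ob + CUR (0 members). The share was 2.09% without C replicate 3 and 2.82% without Ob + RSV replicate 3 (3 members each). Replicate numbers were checked as pairs. Libraries with the same number in different groups had correlations of their deviations from −0.05 to 0.43 (median 0.04). With different numbers these ran from −0.41 to 0.20 (median −0.02). The ranges overlapped and the highest values shared a number, so this check cannot decide whether the numbers pair the samples. With a replicate block, 2 members were called in Ob + EAE vs. Ob (Sst, −1.09, and Ghrh, −1.23; 3.92% of all genes), 1 in Ob + EAE vs. C (Sst; 0.771%), 4 over all groups (8.13%; 3 with the length and GC trend also removed, where Sstr1 passed in Ob vs. C at −1.47, adjusted p = 0.0144 by edgeR), and Sst in Ob vs. C turned to −0.0063. Pairs of members that passed numbered 3, 1 with deviations from group means, 1 in 9 libraries, 0 with the trend removed and 2 to 4 with 1 library left out.

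Signs turned in small estimates. With the trend removed, the log2FC of Sst in Ob vs. C was −0.20 and of Crh in Ob + EAE vs. Ob 0.092; with the block as well, it was −0.23 for Sst, −0.045 for Ghrh and 0.14 for Crh, and 0.044 for Tac2 in Ob + EAE vs. C. Leaving out single libraries, it ranged in Ob vs. C from −0.22 to 0.18 for Crh, −0.17 to 0.36 for Sst and −0.031 to 0.68 for Ghrh, in Ob + RSV vs. Ob from −0.075 to 0.49 for Crh, −0.60 to 0.061 for Sst and −0.93 to 0.11 for Ghrh, and in Ob + RSV vs. C from −0.12 to 0.45 for Crh, −0.22 to 0.084 for Trh, −0.51 to 0.068 for Sst, −0.66 to 0.38 for Ghrh and −0.45 to 0.65 for Gnrh1. Without C replicate 2, Ob replicate 1 and Ob + RSV replicate 2 together, it was 0.15 for Crh, −0.21 for Sst and −0.20 for Ghrh in Ob vs. C, −0.29 for Crh and 0.18 for Sst in Ob + RSV vs. Ob, and −0.15 for Crh and −0.055 for Gnrh1 in Ob + RSV vs. C. With deviations from group means, r was −0.039 for Crh and Trh, −0.61 for Crh and Sst, −0.19 for Crh and Ghrh, −0.48 for Sst and Gnrh1 and −0.11 for Ghrh and Gnrh1. In 9 libraries it was −0.18, −0.63, −0.28 and −0.41 for the first 4 of these pairs, and with the trend removed −0.0076 for Sst and Gnrh1. Leaving out 1 library, r ranged from −0.26 to 0.57 for Crh and Sst and from −0.12 to 0.47 for Crh and Ghrh, lowest without Ob + CUR. The cause of these changes was not tested.

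Over all genes, DEGs in Ob + EAE vs. Ob numbered 665 (1 to 1417 over the alternatives with an adjusted p, 163 with the trend removed), in Ob + EAE vs. C 5 (0 to 279), over all groups 263 (20 to 2940), and in Ob vs. C, Ob + RSV vs. Ob and Ob + RSV vs. C 0 (up to 50, 16 and 40, with the block alone or with the trend removed as well; 35, 11 and 32 with every gene with a read). At an unadjusted p with the log2FC minimum, the 5 pairwise comparisons had 1757, 516, 388, 733 and 790 in the same order. Gnrh1 rested on 16 to 134 reads per library, and no group held more than 3 libraries. The part of depth and group size in these results was not tested.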
